A study of Mus musculus with 15 samples.

Results

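The genes described here are the interleukins, the CC and CXC chemokines and the receptors named after them in the mouse. They were taken by symbol from the protein-coding genes of RefSeq: symbols starting with Il and a digit, Ccl, Ccr and a digit, Cxcl or Cxcr. The rule found 137 genes among 21887 coding genes. They comprise 38 interleukins, 40 interleukin receptors and signal chains, 25 CC chemokines, 12 CXC chemokines, 11 CC receptors, 6 CXC receptors and 5 genes of binding proteins, antagonists or enzymes that carry an interleukin symbol. Symbols are not functions: Il4i1 and Il4i1b are named after an amino acid oxidase induced by interleukin 4, and Il1rapl1 and Il1rapl2 encode relatives of an interleukin-1 receptor chain that act at synapses.

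The series measured binding of the tumour suppressor p53 by chromatin immunoprecipitation and sequencing (ChIP-seq) in liver, spleen and thymus of mice labelled wild type. Each organ had 2 libraries from untreated mice, 2 from mice given X-rays (2 Gy, organs taken at 3 h) and 1 of input chromatin. The labels give no strain, age or sex of the mice and do not name the antibody. The values used are 1 list of genomic regions per organ, with 3872 regions in liver, 2604 in spleen and 2405 in thymus, each with the authors' score on a scale that is not given. The lists carry irradiation and IgG, a nonspecific control antibody, in their names, while no library is labelled IgG. Whether they were called from the irradiated libraries alone is not stated. Each list is assigned by the labels to all 5 libraries of its organ, so nothing below separates irradiated from untreated mice, there are no replicates, and read depth is unknown. For the same reason no test was possible, and every comparison is a description of these 3 lists.

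Interleukins and chemokines are secreted proteins that carry signals between cells. Interleukin receptors pass the signal on through Janus kinases and STAT factors or, for the interleukin-1 family, through MyD88 and NF-kB; chemokine receptors are G-protein-coupled receptors that steer the migration of leukocytes. Spleen and thymus are full of cells that make and read these signals, and p53 in such cells is best known for driving arrest and apoptosis after DNA damage.

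Few of the cytokine, chemokine and receptor genes lay near a p53 region. A gene was counted when a region of the list overlapped it or the 5 kb on either side. In liver 4 of the 137 genes were counted (2.92%, exact Clopper-Pearson 95% interval 0.801 to 7.31), against 15.2% of all coding genes. In spleen it was 1 gene (0.730%, 0.0185 to 4.0), against 8.11% of all coding genes. In thymus it was also 1 gene (0.730%, 0.0185 to 4.0), against 7.17%. The gene in spleen and thymus was Ccr4, which was in the liver count too. Cxcr4, Il4i1b and Il1rapl1 were counted in liver alone, and 133 genes had no region in any list.

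Cytokine and chemokine genes are short, and a short gene offers less room for a region. Their median length was 8.53 kb, against 17.2 kb for other coding genes. The counts were therefore also set beside the other coding genes of like length, by summing over the 137 genes the share of non-member genes in the same of 10 length classes that had a region. This gave 19.5 genes for the liver list, 9.41 for spleen and 8.19 for thymus. The counts of 4, 1 and 1 were 0.205 times (0.0563 to 0.513), 0.106 times (0.00269 to 0.583) and 0.122 times (0.00309 to 0.669) these values. The intervals scale that of the share and cover counting error only; they treat genes as independent, although many of these genes are tandem copies.

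**Figure D1:**
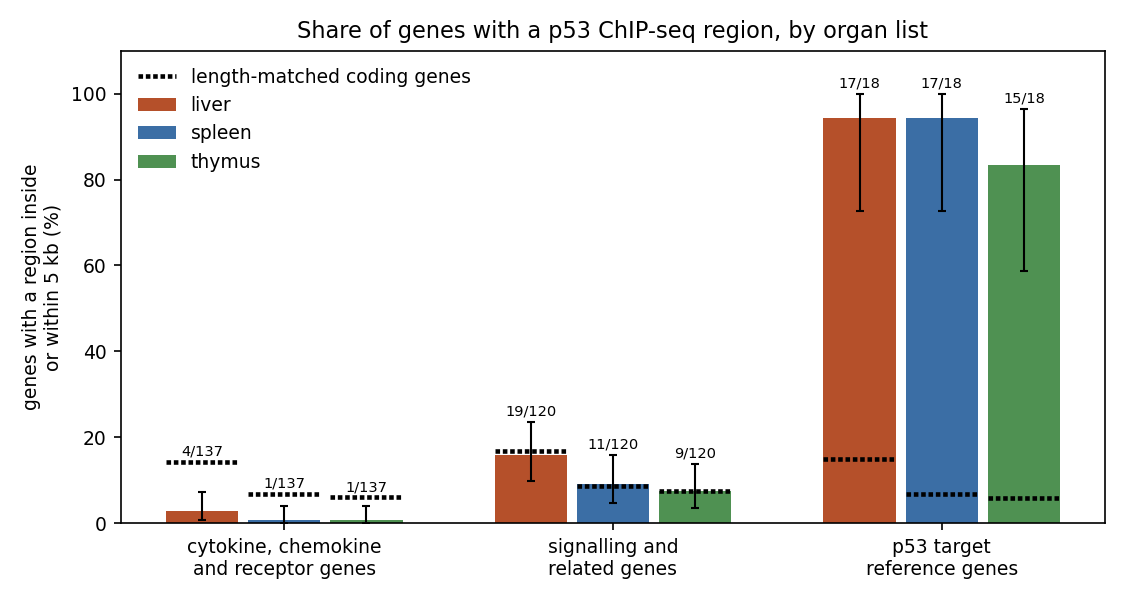
Share of genes with a region inside or within 5 kb (vertical axis, percent) in the liver, spleen and thymus lists, for the cytokine, chemokine and receptor genes, for the 120 signalling and related genes and for known p53 targets. Error bars are exact 95% intervals, dotted lines the share among length-matched coding genes, and labels the counts; the 4, 1 and 1 of 137 genes lie below their dotted lines, with the upper ends of the bars at 7.31%, 4.0% and 4.0%.

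Among the short genes alone the counts were also below the length-matched values. The length classes from 1.54 to 7.38 kb held 61 of the 137 genes, among them most chemokines. Of these 61, only Cxcr4 was counted in liver, where genes of that length would give 6.63, and 0 were counted in spleen and thymus, where they would give 2.85 and 2.55. No interval was worked out for these counts, and values this small in spleen and thymus leave little room to show a shortfall. At the other end, 3 of the genes were in the longest class, above 109 kb. Il1rapl1, which spans 1375 kb, was the only 1 of them with a region.

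No secreted ligand had a region, though for most families and organs this is within what so few genes can show. Of 38 interleukins, 0 were counted in any organ, where length-matched genes would give 5.09 (liver), 2.36 (spleen) and 2.07 (thymus). A count of 0 in 38 genes has an exact upper limit of 9.25%, or 0.691, 1.49 and 1.70 times the length-matched value in liver, spleen and thymus, so the last 2 include it. Of 25 CC chemokines, 0 were counted in any organ, against 2.68, 1.22 and 1.08; the upper limits of 1.28, 2.81 and 3.17 times include the length-matched value in each organ. Of 12 CXC chemokines, 0 were counted, against 1.40, 0.582 and 0.495, with upper limits of 2.27, 5.46 and 6.41 times. The inflammatory cytokines Il1a, Il1b and Il6, the T-cell growth factor Il2, the type 2 cytokines Il4 and Il13 and the anti-inflammatory Il10 are all among the genes without a region.

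Receptors held 3 of the 4 genes. The receptor groups hold 40, 11 and 6 of the 137 genes, so this is not read as a concentration in receptors. Among the 40 interleukin receptors and signal chains, which include long genes (median 33.8 kb), 1 was counted in liver and 0 in spleen and thymus, where length-matched genes would give 7.51, 4.0 and 3.53. That 1 is Il1rapl1. The exact upper limits for this group were 0.701, 0.881 and 0.999 times the length-matched value, so that of thymus only just lies below it. The receptors that bind an interleukin or carry its signal in immune cells, such as Il2ra, Il6ra, Il6st and the common gamma chain gene Il2rg, had none. Of 11 CC receptors, Ccr4 was counted in each organ (length-matched values 1.45, 0.634 and 0.519), and of 6 CXC receptors, Cxcr4 in liver (0.695). Among the 5 genes of binding proteins, antagonists and enzymes, Il4i1b was counted in liver (0.693). With so few genes, the counts of these 3 groups are close to the length-matched values.

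**Figure D2:**
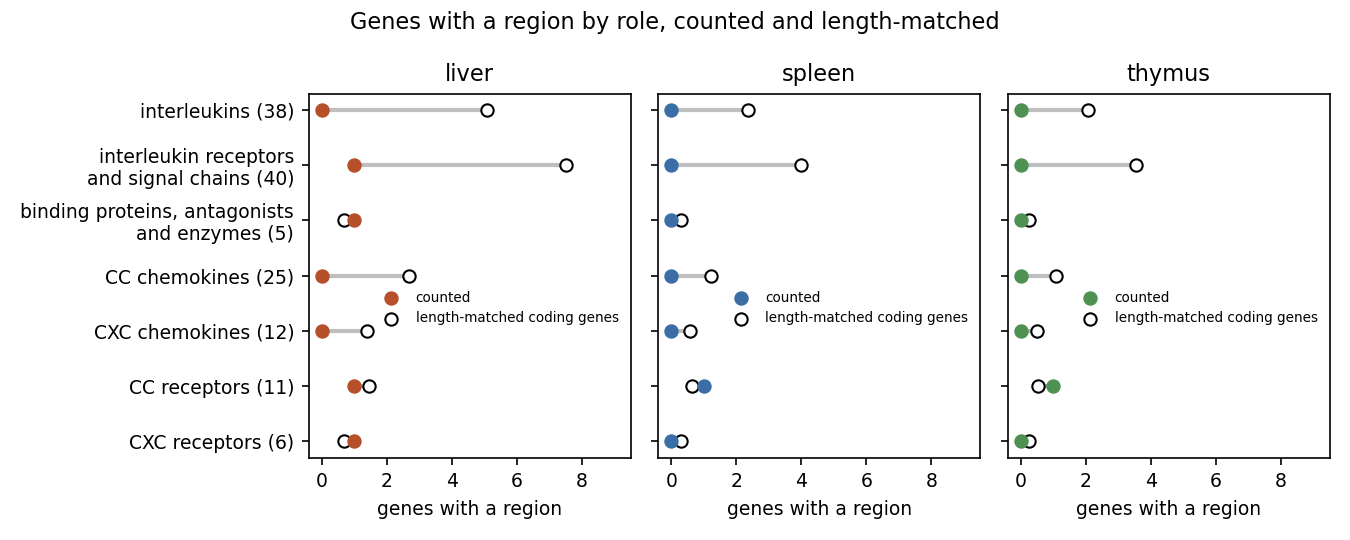
Number of genes with a region (horizontal axis) by role, in 1 panel per organ list; filled points are the counts, open points the number that coding genes of the same lengths would give, and the number of genes in each role stands in brackets. In liver the widest gaps are at the interleukin receptors (1 against 7.51) and the interleukins (0 against 5.09).

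Ccr4 was the only member with a region in all 3 lists, and that region ranked high in each. Ccr4 is the receptor for the chemokines CCL17 and CCL22 and marks type 2 helper, regulatory and skin-homing T cells; it is also expressed by thymocytes. The gene record spans 114490316 to 114505476 on chromosome 9 (GRCm38, the assembly that mm10 names). Its region is 550 bp wide (chr9:114500201-114500750). Its scores of 36.4 (liver), 31.1 (spleen) and 28.3 (thymus) placed it 86th of 3872, 108th of 2604 and 62nd of 2405, at the 97.7, 95.4 and 97.4 percentile. Scores are compared only within a list. The region lies inside the gene record but 3657 to 4206 bp before the start site of this minus-strand gene in the RefSeq promoter table, so it is upstream of that start. It is downstream of the 5′ end of the gene record itself, at 114505476. Only the first start site listed for a gene was used, so whether the region is upstream depends on the start taken. Exons and introns were not told apart. The other coding genes within 5 kb of it numbered 0, and the next region of any list was 188 kb away. The genes of the ligands, Ccl17 and Ccl22, had their nearest region 240930 and 177234 bp away in each list.

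Cxcr4 had a region in the liver list alone, at its start site. CXCR4 is the receptor for CXCL12 and holds blood stem cells and lymphocytes in the marrow and other niches. Its gene lies on chromosome 1 (128588199 to 128592299, minus strand). The region is 50 bp wide (chr1:128592301-128592350) and spans 2 to 51 bp before the start site. It stood at 3331 of 3872 in the liver list, the 14.0 percentile, so it is among the lower-scored regions there. In both spleen and thymus the nearest region was 175702 bp away. No other coding gene lay within 5 kb. The gene of the ligand, Cxcl12, had its nearest region 698033 bp away in liver and 861885 bp away in spleen and thymus.

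Il4i1b also had a region in the liver list alone, but that region lies inside other genes. It is 250 bp wide (chr7:44816101-44816350), ranked at 741 of 3872 (80.9 percentile) and spans 20 to 269 bp before the Il4i1b start site. It is inside both Atf5, which encodes a stress-induced transcription factor, and Nup62, which encodes a nuclear pore protein. Il4i1b shares this stretch of the genome with them, and the region cannot be given to 1 of the 3 genes from its position. When a region counted only for the nearest coding gene, Il4i1b was lost. Il4i1, the oxidase gene itself, overlaps the far end of the Il4i1b record and lay 19938 bp from the same region.

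The promoter windows of these 2 liver genes show what lies under the regions. They run from 250 bases before to 50 after the start site in the RefSeq table of GRCm38.p6 (chr1:128592250-128592549, minus strand, and chr7:44816120-44816419, plus strand), written 5′ to 3′ along the gene, with the bases covered by the liver region in capitals.
Cxcr4: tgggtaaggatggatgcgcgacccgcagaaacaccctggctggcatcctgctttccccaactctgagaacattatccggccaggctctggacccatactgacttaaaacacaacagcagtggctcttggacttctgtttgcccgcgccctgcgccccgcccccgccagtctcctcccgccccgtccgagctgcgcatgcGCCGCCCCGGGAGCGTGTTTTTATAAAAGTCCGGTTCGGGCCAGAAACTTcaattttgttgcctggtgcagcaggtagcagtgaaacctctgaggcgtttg
Il4i1b: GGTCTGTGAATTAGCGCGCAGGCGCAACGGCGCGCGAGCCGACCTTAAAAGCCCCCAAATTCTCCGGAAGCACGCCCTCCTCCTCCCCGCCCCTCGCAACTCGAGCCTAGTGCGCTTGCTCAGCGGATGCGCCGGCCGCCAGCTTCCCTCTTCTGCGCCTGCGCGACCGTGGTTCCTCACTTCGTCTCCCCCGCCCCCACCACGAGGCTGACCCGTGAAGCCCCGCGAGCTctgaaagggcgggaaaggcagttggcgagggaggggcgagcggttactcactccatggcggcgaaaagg

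The region covers 50 of the 300 bases at Cxcr4, next to the start site, and 231 of the 300 at Il4i1b. The Cxcr4 window has 20 CpG dinucleotides, 5 of them under the region, and 64.1% of the windows of coding genes have fewer. The Il4i1b window has 34, of which 28 lie under the region, and 89.8% of the windows have fewer. The consensus half-site of p53, searched by name and exact match (it reads the same on both strands), occurred 0 times in either window. It was found in 7.37% of the 21263 windows of all coding genes. The 4-base core CATG, which is its own reverse complement and sits in many half-sites, was in both windows, as in 56.3% of all coding windows, but in neither was it wholly under the region. A match or its lack describes these letters only. Of 127 windows of 105 member genes in the table, a liver region overlapped 2 (1.57%) and spleen and thymus regions 0, against 7.25%, 2.12% and 1.76% of all coding windows. No interval was worked out for these window counts. Background shares as small as those of spleen and thymus leave little room to show a shortfall, so their counts of 0 are not read as a difference. Some genes have several windows, so the windows are not independent of each other. The median number of CpG dinucleotides was 4 in these member windows and 13 in all coding windows. Its part in the lower counts was not tested. A comparison at matched CpG content was void, because the table holds windows for 76.6% of the member genes, under the 80% it needs. For all coding genes that share was 79.9%, so the gap is not particular to the members.

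The window of Ccr4 has no region in it, and is shown because the strong region of that gene lies upstream of it (chr9:114496495-114496794, minus strand).
Ccr4: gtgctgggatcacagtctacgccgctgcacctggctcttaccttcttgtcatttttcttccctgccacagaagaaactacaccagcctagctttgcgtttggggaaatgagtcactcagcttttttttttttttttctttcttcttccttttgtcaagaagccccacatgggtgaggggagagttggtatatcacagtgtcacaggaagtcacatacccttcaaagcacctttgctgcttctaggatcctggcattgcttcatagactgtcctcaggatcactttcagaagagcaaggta

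It has 3 CpG dinucleotides, where 18.1% of coding windows have fewer, and 0 half-sites. The sequence under the Ccr4 region itself was not used here.

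Il1rapl1 is the fourth gene. It encodes a synaptic adhesion protein related to the interleukin-1 receptor accessory chain. Its gene is the longest of the 137, at 1375012 bp on chromosome X (86740937 to 88115948). A region of 150 bp in the liver list (chrX:87238301-87238450) lies inside it, 877498 bp after the start site, at 3744 of 3872 (3.33 percentile). In spleen and thymus the nearest region was 6562253 bp from the gene. Without Il1rapl1, Il1rapl2, Il4i1 and Il4i1b, 133 genes were left, and the liver count was 2 against a length-matched value of 18.8.

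**Figure D3:**
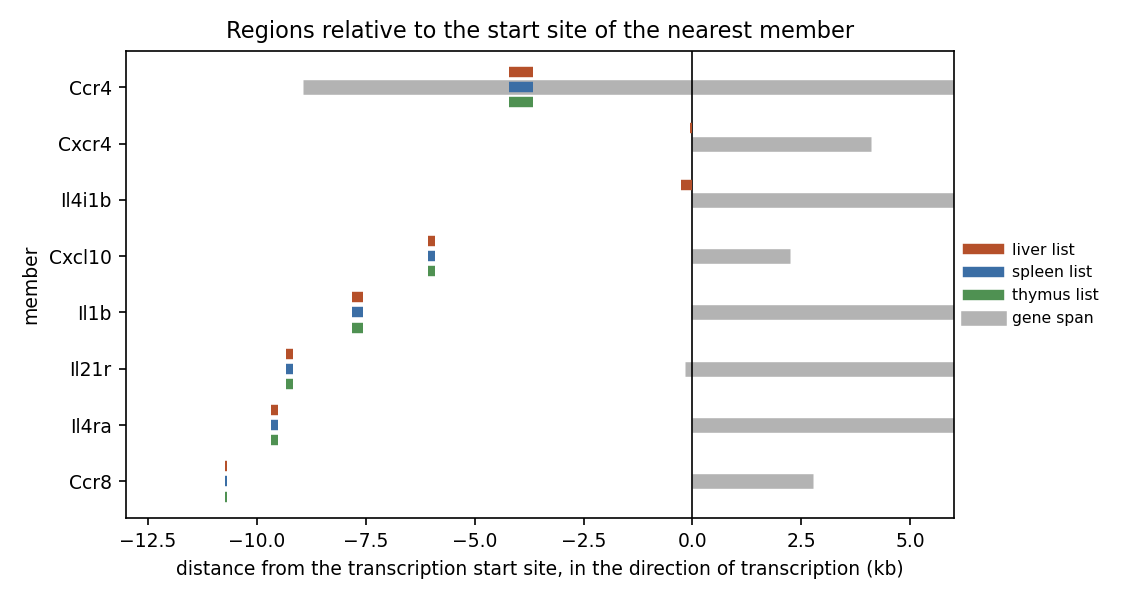
Regions of the liver, spleen and thymus lists (coloured bars) relative to the transcription start site of the nearest cytokine, chemokine or receptor gene (horizontal axis, kb in the direction of transcription); grey bars are gene records, cut at the edges of the plot. Ccr4 has its region upstream of the start site used but downstream of the 5′ end of its gene record, in all 3 lists. Cxcr4 and Il4i1b have theirs at the start in liver alone, and the other 5 genes have theirs from 5912 to 10683 bp away in all 3 lists.

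There is a gap between the genes counted and the rest: the 4 genes lay at most 20 bp from their region, and the next gene lay 5912 bp away. The 5 nearest genes outside the 5 kb were Cxcl10, Il1b, Il21r, Il4ra and Ccr8, and each of their regions was in all 3 lists. The chemokine gene Cxcl10, induced by interferons, lies inside the longer gene record of Art3. The Cxcl10 region is 5912 bp upstream of the gene (chr5:92354801-92354950), also inside Art3 and 4594 bp from the Cxcl11 pseudogene. It stood at the 2.61 percentile of the liver list, 51.0 of spleen and 90.9 of thymus, near the bottom of the first and near the top of the last. The interleukin-1 beta gene Il1b has a region 7537 bp from the gene (chr2:129378701-129378950), inside the pseudogene Spcs2-ps and 2968 bp from the antisense transcript Il1bos. Its percentiles were 57.8, 72.5 and 24.0 in liver, spleen and thymus.

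Neighbouring receptor genes on chromosome 7 each had a separate region upstream. Il4ra, the receptor chain shared by interleukins 4 and 13, had one 9521 bp away (chr7:125542601-125542750), at the 4.78, 65.2 and 51.6 percentile of the same lists. Il21r, the interleukin 21 receptor gene, had one 9002 bp away (chr7:125594101-125594250), at 30.3, 32.8 and 84.2. Ccr8, a receptor of regulatory T cells, had a region of 50 bp at 10683 bp (chr9:120081401-120081450), at 1.63, 70.8 and 36.3. The next gene was Il6, named here after its values were seen: its region lies 14226 bp beyond the gene (chr5:30034201-30034450) and 4096 bp from Tyms, at 23.1, 86.8 and 93.7. Of the 5 regions from Cxcl10 to Ccr8, 4 had their lowest percentile in liver (30.3 against 32.8 in spleen for Il21r), and so had 44.1% of the 1930 regions that are in all 3 lists. The lists differ in length and hold no replicates, so the ranks are set side by side without a test.

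**Figure D4:**
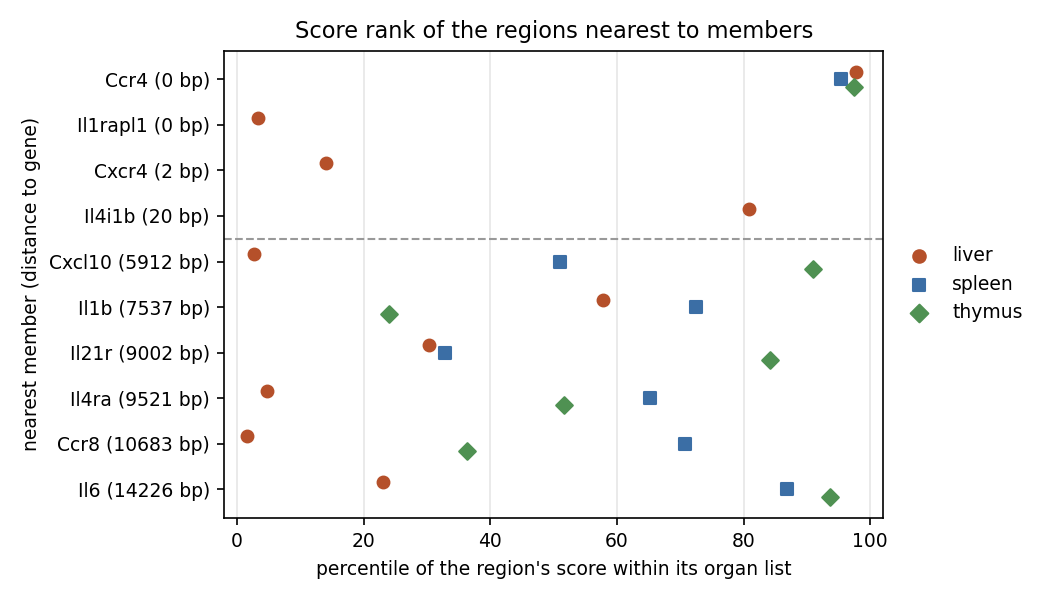
Percentile of each region's score within its own organ list (horizontal axis) for the regions nearest to 10 genes, ordered by distance to the gene (in brackets); circles are liver, squares spleen and diamonds thymus, and the dashed line marks the 5 kb limit. Ccr4 sits above the 95 percentile in all 3 lists, while the regions below the line spread from 1.63 to 93.7.

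The distances of the other genes were also long. Here the other coding genes were taken at any length, without the length matching used for the counts. The median distance from a member to the nearest region was 193 kb (liver), 322 kb (spleen) and 315 kb (thymus), against 123, 227 and 255 kb for other coding genes. Within 25 kb lay 12.4%, 8.03% and 6.57% of the members, against 24.5%, 14.3% and 13.0% of other coding genes. Within 100 kb lay 35.8%, 19.7% and 19.7%, against 45.7%, 31.3% and 29.1%. Within 1000 kb the order was reversed, with 93.43%, 89.05% and 87.59% of the members against 89.35%, 84.74% and 83.54%. The CC chemokines were farthest, with medians of 569, 570 and 570 kb. The CC chemokine genes clustered on chromosome 11 all have the same nearest region (chr11:83078201-83078450), so these medians count a single neighbourhood many times. In liver the CC receptors were nearest among the chemokine and interleukin families, with 92.2 kb. Ccl21c is listed at 59769 to 60899 of chromosome 4, before 3 Mb, where the lists have no region on any chromosome but Y, so its listed distance of 3341802 bp has no clear meaning; it is included in the values above.

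**Figure D5:**
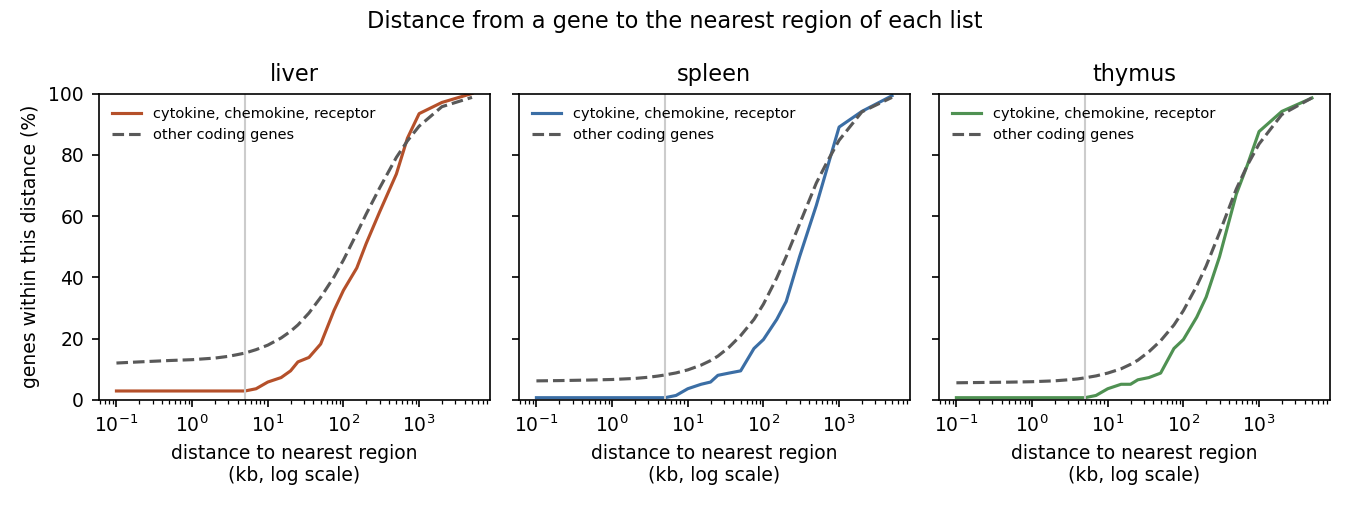
Cumulative share of genes (vertical axis, percent) within a given distance of the nearest region (horizontal axis, kb, log scale), in 1 panel per organ list; solid lines are the 137 cytokine, chemokine and receptor genes, dashed lines the other coding genes, and the grey line marks 5 kb. The solid lines lie below the dashed ones up to 100 kb, where they reach 35.8%, 19.7% and 19.7%. At 1000 kb the solid lines lie above the dashed ones. The dashed lines are not length-matched.

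The tandem gene clusters held no region. Members less than 100 kb apart formed 8 clusters of at least 4 genes, with 41 genes in all, and 0 regions of any list fell within them. The clusters spanned 123 to 467 kb each, and the number of regions that stretches of this size would hold was not worked out. The count of 0 is therefore not read as a result about clusters. The CC chemokine cluster from Ccl2 to Ccl1 on chromosome 11 (82035577 to 82179812; 6 genes, among them Ccl2, which draws monocytes) was 898 kb from the nearest region in each list. The neighbouring cluster from Ccl5 to Ccl4 (83525778 to 83664683; 5 genes) was 447 kb away. The interleukin-1 ligand cluster that ends in the antagonist gene Il1rn (chromosome 2, 24153172 to 24351491; 6 genes) was 568 kb away, and the receptor cluster from Il1r2 to Il18rap (chromosome 1, 40084692 to 40551707; 6 genes) was 177 kb away. The neutrophil chemokines from Cxcl5 to Cxcl2 (chromosome 5, 90759298 to 90905938; 5 genes) were 204 kb away. A further 2 clusters, from Il24 to Il10 and from Ccl27b to Ccl21a, were 113 and 719 kb away. Genes of a cluster share their surroundings and are not independent of each other.

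Genes around these ligands and receptors were taken from 4 lists: JAK-STAT signalling, interleukin-1 receptor and NF-kB signalling, other cytokines and growth factors with their receptors, and the rest of the chemokine system. The lists were chosen with earlier results of these data known. Of their 120 genes, 19 had a region in liver (15.8%, interval 9.81 to 23.6), 11 in spleen (9.17%, 4.67 to 15.8) and 9 in thymus (7.5%, 3.49 to 13.8). Length-matched genes would give 20.1, 10.3 and 9.10. The pooled counts join lists that differ: in liver the ratio to the length-matched value ran from 0.479 for the other cytokines and growth factors to 1.65 for interleukin-1 receptor and NF-kB signalling.

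Of 31 genes of interleukin-1 receptor and NF-kB signalling, 9 were counted in liver (length-matched value 5.45), 7 in spleen (2.73) and 4 in thymus (2.44). The ratios were 1.65 (0.809 to 2.73), 2.56 (1.09 to 4.66) and 1.64 (0.462 to 3.80), so the intervals of liver and thymus include the length-matched share. That of spleen lies above it, but the list was chosen with earlier results known and is 1 of several, so no enrichment is read from it. Tab2, an adaptor of the TAK1 kinase, had a region inside the gene at the 97.6, 63.2 and 91.6 percentile. Tab1, a second adaptor of that kinase, with a region 4077 bp away (40.0, 65.9 and 89.3), and Ikbkg, which encodes the NEMO subunit of the IkB kinase (29.3, 77.4 and 90.7), were also in all 3 lists. Myd88, the adaptor of interleukin-1 and Toll-like receptors, was as well, with a region 1283 bp away that is also within 5 kb of Acaa1a (94.9, 54.6 and 28.0). Map3k7, which encodes TAK1 (25.7 and 53.7), Chuk (91.0 and 4.22; also near Erlin1) and Tollip (85.9 and 5.72) had theirs in liver and spleen. Nfkbia (26.1) and Rela (68.9; also near Sipa1) had theirs in liver.

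Of 27 JAK-STAT genes, 4 were counted in liver (5.0), 0 in spleen (2.71) and 2 in thymus (2.41). These were Socs4, a suppressor of cytokine signalling whose region is also near Wdhd1 (69.8 in liver and 11.7 in thymus), the phosphatase genes Ptpn11 (47.8 and 22.1) and Ptpn2 (62.6 in liver), and Pias4 (34.7 in liver). The 4 Janus kinase genes and the 7 STAT genes had no region. Of 40 genes of other cytokines, growth factors and their receptors, 3, 2 and 2 were counted (6.26, 3.11 and 2.74). Tgfbr2, a receptor of TGF-beta, held a region in each list (28.4, 44.7 and 52.2), and the interferon receptor gene Ifnar1 one in liver (45.0). Of 22 genes of the chemokine system that the symbol rule leaves out, 3, 2 and 1 were counted (3.35, 1.72 and 1.52). The G-protein gene Gnai3 had a region 1749 bp away, also near Gpr61 (41.1, 11.5 and 17.0), the arrestin gene Arrb2 one in liver and spleen (36.1 and 10.8), and Dock2, needed for lymphocyte migration, one in liver (7.83). Atypical receptors such as Ackr3, which also binds CXCL12, had none.

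Known p53 targets counted in the same way served as a reference for what the lists can show. Of 18 genes of p53 feedback, arrest and apoptosis, 17 had a region in liver (94.4%, interval 72.7 to 99.9), 17 in spleen and 15 in thymus (83.3%, 58.6 to 96.4), where length-matched genes would give 2.69, 1.23 and 1.05. The Ccr4 percentiles of 97.7, 95.4 and 97.4 stand beside 99.1, 95.4 and 98.9 for Cdkn1a, the p53 target that arrests the cell cycle, and 65.6, 57.3 and 86.8 for Fas, the death receptor gene. Cdkn1a and Fas are examples only. Reference genes are given by their highest-scored region within 5 kb in each list, and members by their nearest region. Other reference genes ranked high throughout, such as Zmat3 (99.8, 99.6 and 99.8), or unevenly, such as Mdm2 (76.0, 63.5 and 27.0). The reference genes were picked as targets of p53, so their counts are a check of the lists and not a result about them.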

How the data were processed

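p53 ChIP-seq regions of liver, spleen and thymus were analysed from 3 headerless lists that the authors deposited, 1 per organ. The 5th column of each deposited list is a score per region, whose scale is not given; build mm10 is named per the submitters' processing notes. No source used here gives the region caller, the aligner, the treatment of reads that match several copies or any pooling of libraries. Scores were used only as percentiles within a list, with ties averaged. For members the percentile is that of the nearest region. For pathway and reference genes it is that of the highest-scored region within 5 kb in each list. Genes, promoter windows and start sites came from RefSeq for GRCm38.p6; gene records give no exons. Starts were converted to count from 1. Distances run from the end of a gene record to the nearest base of a region, and at least 1 bp of overlap with the gene or its 5 kb flanks counted. Length-matched values are fixed averages over all other coding genes, with no random draws. Intervals are exact Clopper-Pearson 95% intervals. No test was run, since each organ has a single list. Named were all members with a region, the 5 next nearest and all pathway genes with a region; ligands, receptors and other partners without a region were named after their values were seen. The values of 1 pathway gene and 1 gene cluster are not reported here. The members and lists were chosen with earlier results of these data known. Overlaps and length-matched values were tested on simulated data and against bedtools. Python 3.11.15, pandas 2.3.3, numpy 2.4.6 and SciPy 1.17.1 were used.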

Additional observations from a re-analysis of the deposited data

How the results depend on the processing

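The counts stayed below the length-matched values under all 12 settings tried in each organ, with ratios from 0.106 to 0.339 in liver, 0 to 0.422 in spleen and 0 to 0.475 in thymus. The liver count of 4 fell to 2 with the gene body alone, with windows of 1 kb around gene ends, with the upper 50% of regions by score, with lists shortened to the shortest, and without Il4i1, Il4i1b, Il1rapl1 and Il1rapl2, and rose to 8 with 10 kb on each side. With 10 kb, the spleen and thymus counts of 1 rose to 5 each, and with 1 kb around gene ends both were 0 (ratio 0). Leaving out the 108 coding genes listed before 3 Mb or 8 near-identical copies, both chosen after seeing the data, left every count as it was. No paired analysis was possible because each organ has 1 list and no values per library. Leaving out a replicate was not possible for the same reason. Depth is unknown, so a gene without a region cannot be told apart from one whose signal was too weak to be called.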
